A study of Mus musculus with 4 samples.

Results

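The 10 genes followed here mark the stem and progenitor compartments of the mouse hair follicle: Lhx2, Sox9, Lgr5, Cd34, Nfatc1 and Tbx1 of the bulge and hair germ, Runx1 of the bulge and hair germ at the onset of growth, and Lrig1, Plet1 and Gata6 of the isthmus, junctional zone and sebaceous duct. They were taken by name as a set of 10 among the 39179 genes of each count file, all 10 were matched by symbol, and all 10 had enough reads to be among the 16651 genes tested. RNA sequencing had been done on 4 libraries of mouse skin (strain C57BL/6): 2 of wild-type (WT) skin and 2 of lesions of mice lacking Itch (labelled Itch KO), a ubiquitin ligase whose loss in mice is known for inflamed, itchy skin. The labels list inflammation as the phenotype of every sample, WT included. The Itch allele, age, sex, body site and number of animals behind each library are not stated in the labels, so any p-value here reflects only the variation among these 4 libraries, which may be technical. The series poses 1 question, how lesional knockout skin differs from WT skin.

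The hair follicle renews itself in cycles of growth (anagen), regression and rest (telogen) from stem cells held in a niche called the bulge. Above the bulge, the isthmus and junctional zone hold separate progenitors that maintain the upper follicle and the sebaceous gland. Lhx2 and Sox9 are transcription factors that keep bulge cells in the stem cell state, Lgr5 is a receptor for R-spondins that amplify Wnt signals, Lrig1 restrains growth factor receptors of the ERBB family, and Nfatc1 and Tbx1 are factors linked to bulge cell quiescence and self-renewal.

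Library facts that touch these genes come first. Reads assigned to genes ranged from 15144957 to 16008351. Itch itself measured 96.7 and 103 CPM (read counts scaled to a common library size) in WT libraries 1 and 2 and 11.7 in each knockout library, on the side of the label in all 4. WT library 1 stood apart: its log2(CPM + 1) values correlated across genes at 0.923 with WT library 2 and at 0.849 and 0.850 with the knockouts, while the knockouts correlated at 0.983 with each other (Pearson's r; genes are not independent replicates). Xist, transcribed from the inactive X chromosome, measured 1055 and 631 CPM in WT skin versus 0.947 and 0.892 CPM in knockout skin, and the Y-linked Eif2s3y 0.133 and 0.126 CPM in WT skin versus 69.5 and 73.7 CPM. Genotype and sex can therefore not be told apart in any comparison of these groups. Eif2s3y was the only gene past an adjusted p of 0.05 in edgeR's quasi-likelihood test, a share of 0.00601% of tested genes. Itch (log2 fold change -3.09) and Xist (-9.83) missed that threshold in the same test, both at an adjusted p of 0.0509. A gene not called in this test is therefore not shown to be unchanged. Of tested genes, 22.8% reached an unadjusted p under 0.05. Leaving out WT library 1 gave 946 genes higher and 371 lower, leaving out WT library 2 gave 2657 and 2663, and leaving out either knockout library gave 0.

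The promoter sequences of 4 members are shown because 2 of them, Lhx2 and Lrig1, had the most similar levels over the libraries, Runx1 had the highest fold in the knockouts, and Plet1 had the highest level for its length. Each is RefSeq sequence on GRCm38.p6, from 250 bases before to 50 bases after an annotated start, written 5′ to 3′ on the gene's own strand. The windows are chr2:38339031-38339330 (plus strand) for Lhx2, chr6:94700096-94700395 (minus) for Lrig1, chr16:92826025-92826324 (minus) for Runx1 and chr9:50494275-50494574 (plus) for Plet1. Capitals mark matches, on either strand, to 8 motifs: TGTGGTT for RUNX factors, TAATTA for LIM homeodomain factors, ACAAT for SOX factors, TGGAAA for NFAT factors, AGATAA for GATA factors, TGACTCA for AP-1, TATAAA for the TATA box, and the CCAAT box by its own name.
Lhx2: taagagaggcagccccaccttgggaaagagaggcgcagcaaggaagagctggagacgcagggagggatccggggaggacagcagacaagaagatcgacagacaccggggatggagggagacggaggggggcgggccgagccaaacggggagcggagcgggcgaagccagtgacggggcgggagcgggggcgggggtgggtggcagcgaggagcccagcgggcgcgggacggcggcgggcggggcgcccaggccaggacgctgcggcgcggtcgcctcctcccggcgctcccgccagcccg
Lrig1: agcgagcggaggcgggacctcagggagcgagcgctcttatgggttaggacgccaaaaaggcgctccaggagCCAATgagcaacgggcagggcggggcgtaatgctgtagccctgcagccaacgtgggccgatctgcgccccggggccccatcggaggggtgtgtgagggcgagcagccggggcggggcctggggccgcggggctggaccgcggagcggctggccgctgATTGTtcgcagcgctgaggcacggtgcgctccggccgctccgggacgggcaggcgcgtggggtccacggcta
Runx1: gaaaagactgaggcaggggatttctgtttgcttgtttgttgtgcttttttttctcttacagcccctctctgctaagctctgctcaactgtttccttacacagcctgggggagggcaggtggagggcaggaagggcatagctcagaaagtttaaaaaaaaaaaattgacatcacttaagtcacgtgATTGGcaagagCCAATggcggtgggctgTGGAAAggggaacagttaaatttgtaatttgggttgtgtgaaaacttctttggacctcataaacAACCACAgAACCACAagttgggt
Plet1: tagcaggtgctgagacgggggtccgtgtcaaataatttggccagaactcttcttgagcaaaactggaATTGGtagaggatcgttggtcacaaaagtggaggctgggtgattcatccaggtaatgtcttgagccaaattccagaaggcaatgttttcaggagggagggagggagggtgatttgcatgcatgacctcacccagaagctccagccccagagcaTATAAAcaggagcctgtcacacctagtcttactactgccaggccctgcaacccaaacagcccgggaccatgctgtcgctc

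RefSeq windows at 2 starts were held for each of Runx1 and Lhx2, and the upstream one is shown. This Runx1 window held 2 RUNX matches, at 28 and 36 bases after the start, letters that 5.27% of 32851 promoter windows hold. It also held 1 NFAT match, present in 21.4% of windows, and a pair of CCAAT boxes in opposite orientation, of which at least 1 is present in 37.4%. The other Runx1 window, chr16:92697280-92697579 (minus), held 1 NFAT match and 2 CCAAT boxes but 0 RUNX matches. The Plet1 window carried a TATA box beginning 30 bases before the start, found in 13.6% of windows, and 1 CCAAT box. The Lrig1 window had 1 SOX match, at 22 bases before the start (31% of windows), and 1 CCAAT box. The Lhx2 window, 74.7% G and C, held none of these motifs, although its level followed that of Lrig1. Each share counts windows that hold at least 1 match at any position and on either strand, not at the position given. These matches describe letters in the windows, and none was tested for binding or effect. Windows were read for 6 of the 10 members, with chromosome 18, where Nfatc1 and Gata6 lie, left out.

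The members covered a wide range of levels. Scaled per kilobase of exon, the mean over the 4 libraries was highest for Plet1, a surface protein of the isthmus, at 51.7 CPM per kilobase. Cd34, a surface sialomucin that marks bulge cells in mice, followed at 28.8, Lrig1 at 27.8, Sox9 at 17.7, Lhx2 at 14.1, Tbx1 at 11.3 and Nfatc1 at 9.26 CPM per kilobase. Runx1 at 4.11, Lgr5 at 2.95 and Gata6 at 1.47 CPM per kilobase were lowest. In this order each gene's range over libraries overlapped that of the next, except between Nfatc1 (lowest library 7.02) and Runx1 (highest library 5.98 CPM per kilobase).

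**Figure D1:**
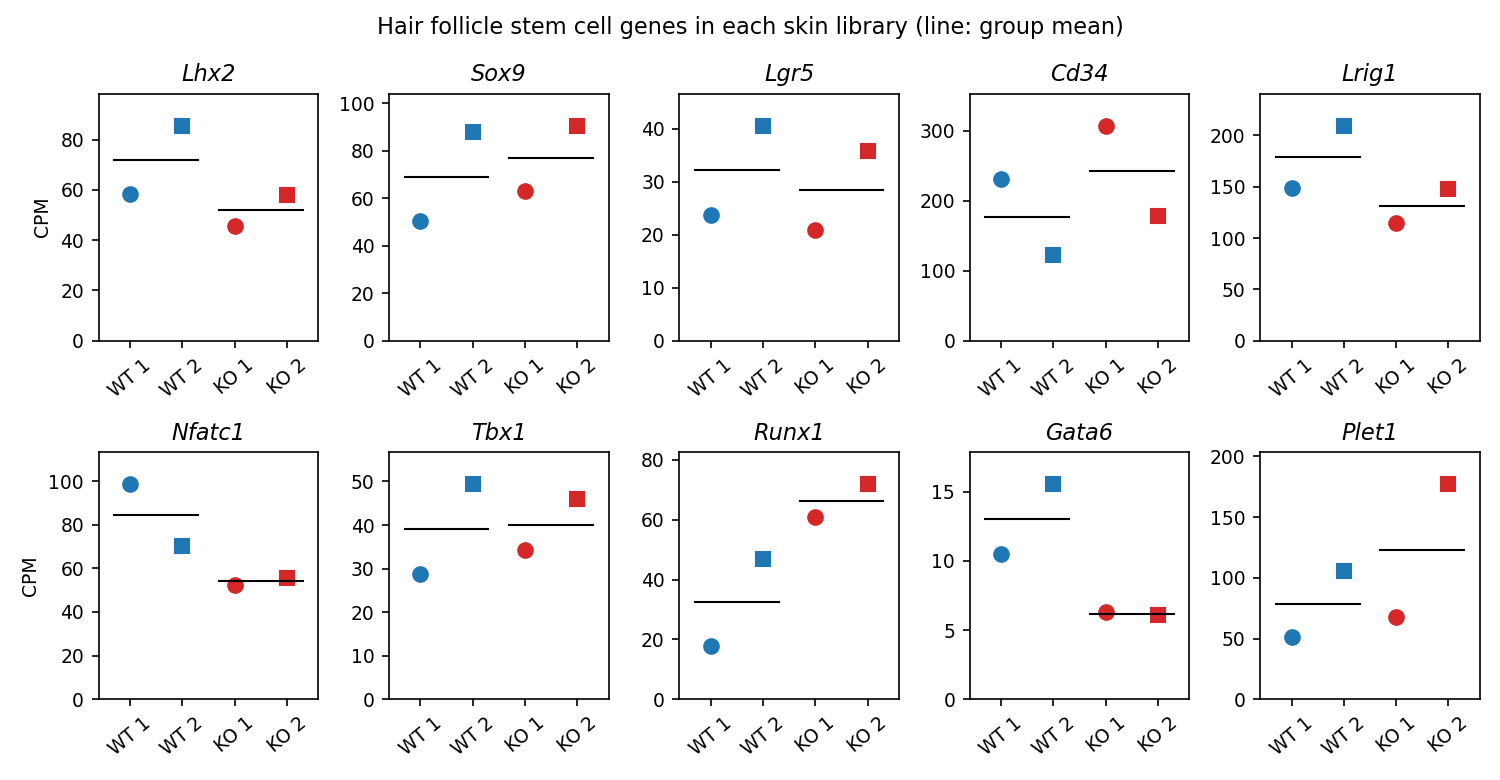
Level of each of the 10 members in CPM (y axis, starting at 0, a separate scale per panel) in WT libraries 1 and 2 (blue) and knockout libraries 1 and 2 (red); the line is the mean of 2 libraries. The groups do not overlap for Runx1, which is higher in the knockouts, or for Lhx2, Lrig1, Nfatc1 and Gata6, which are lower.

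Between genotypes, 5 of the 10 members had groups that did not overlap, and none passed the test over all genes. Runx1 was higher in both knockout libraries, and Lhx2, Lrig1, Nfatc1 and Gata6 were lower in both. Across all tested genes, 31.2% lay higher without overlap and 30.0% lower, so the 1 member above was fewer than that background gives in 10 genes, the 4 below were close to it, and neither count is a result about the members. In edgeR 0 members passed an adjusted p of 0.05, and 2, Gata6 and Nfatc1, reached an unadjusted p under 0.05, both lower, where 10.9% of all genes were lower at that level and 12.0% higher. DESeq2 also called 0 members, where it called 14.0% of all genes (7.83% higher, 6.16% lower). With limma-voom, 0 members and 0% of all genes were called. The median log2 fold change of the 10 members was -0.07, beside 0.01 over all tested genes.

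Among the factors of the bulge, Lhx2 (ENSMUSG00000000247, GRCm38 chromosome 2, 38339281 to 38369733) measured 58.3 and 85.5 CPM in WT skin versus 45.8 and 58.1 CPM in the knockouts. The groups missed each other narrowly, since knockout library 2 lay just under WT library 1. The log2 fold change of knockout over WT was -0.47 (SE 0.26, edgeR adjusted p = 0.340), and it ranged from -0.72 without WT library 1 to -0.16 without WT library 2. Sox9 (ENSMUSG00000000567, chromosome 11, 112782224 to 112787760) measured 50.3 and 87.9 CPM in WT skin versus 63.3 and 90.6 CPM in the knockouts, so each group had 1 low and 1 high library. Its log2 fold change was 0.16 (SE 0.35, adjusted p = 0.811), with a 95% interval from 0.581-fold to 2.14-fold, and it turned to -0.20 without WT library 1 and -0.12 without knockout library 2.

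Nfatc1 (ENSMUSG00000033016), the calcineurin-dependent factor of quiescent bulge cells, measured 98.5 and 70.1 CPM in WT skin versus 52.4 and 55.6 CPM in the knockouts. Both knockout libraries were close together and below both WT libraries (log2 fold change -0.64, SE 0.22, adjusted p = 0.197, unadjusted p = 0.0379). Without WT library 2 it was called, at -0.86 (adjusted p = 0.0117), and without WT library 1 it was at -0.38 (adjusted p = 0.224). Tbx1 (ENSMUSG00000009097, chromosome 16, 18580979 to 18590671), a T-box factor of bulge cell self-renewal, measured 28.8 and 49.4 CPM in WT skin versus 34.2 and 46.0 CPM in the knockouts. The knockout range lay inside the WT range, with a log2 fold change of 0.04 (SE 0.34, adjusted p = 0.954) and an interval from 0.550-fold to 1.92-fold, and it turned to -0.30 without WT library 1 and -0.19 without knockout library 2.

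Runx1 (ENSMUSG00000022952, chromosome 16, 92601466 to 92826149), a runt-domain factor that promotes the activation of follicle stem cells and is also a factor of blood cells, had the highest fold among the members and missed the threshold. It measured 17.9 and 46.8 CPM in WT skin versus 60.9 and 71.9 CPM in the knockouts. Both knockouts were above both WT libraries, and WT library 1 was the low one by a wide margin (log2 fold change 1.03, SE 0.50, adjusted p = 0.291). Without WT library 2, Runx1 was called with a log2 fold change of 1.89 (adjusted p = 0.00207), where the spread came from the knockouts alone, and without WT library 1 the value was 0.50 (adjusted p = 0.172). White blood cell markers were higher in both knockouts for 8 of 10 genes, beside 31.2% of all tested genes. Their sums were 471 and 425 CPM in WT skin versus 2194 and 1488 CPM in the knockouts. The T cell genes Cd3e and Cd3g of this list instead overlapped between groups, at log2 fold changes of -0.56 and -0.43. The part of white blood cells in the Runx1 level was not tested. Laptm5, a lysosomal protein of white blood cells, measured 51.9 and 47.6 CPM in WT skin versus 296 and 232 CPM, and Cd68, a macrophage protein, at 17.7 and 19.6 CPM in WT skin versus 134 and 96.3 CPM. In bulk skin, fewer cells of a type and less RNA per cell cannot be told apart.

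The surface proteins varied mostly within groups. Lgr5 (ENSMUSG00000020140, chromosome 10, 115450311 to 115587780) measured 23.7 and 40.6 CPM in WT skin versus 20.97 and 35.8 CPM in the knockouts. Library 2 was about 1.71 times library 1 in each group, and the genotypes overlapped (log2 fold change -0.18, SE 0.40, adjusted p = 0.809, interval 0.417-fold to 1.87-fold). The sign turned to 0.26 without WT library 2 and 0.14 without knockout library 1. Cd34 (ENSMUSG00000016494, chromosome 1, 194938819 to 194961279) ran the other way, with 232 and 123 CPM in WT skin versus 307 and 179 CPM in the knockouts. Its log2 fold change was 0.45 (SE 0.43, adjusted p = 0.553). It was 0.98 without WT library 1 and 0.80 without knockout library 2, against 0.07 without WT library 2 and 0.01 without knockout library 1. Cd34 is made by blood vessels and fibroblasts too. Endothelial markers had sums of 391 and 173 CPM in WT skin versus 460 and 383 CPM, lowest in WT library 2, where Cd34 was also lowest. Of these 8 markers, 4 were above both WT libraries in both knockouts, led by Tie1, a vessel receptor, at 31.6 and 17.5 CPM in WT skin versus 57.4 and 42.0 CPM, and Emcn, a vessel sialomucin, at 19.5 and 8.58 CPM in WT skin versus 32.0 and 21.8 CPM. All 5 fibroblast markers were higher in both knockouts, with sums of 1185 and 2189 CPM in WT skin versus 8258 and 7794 CPM. Of all tested genes, 31.2% were higher in both knockouts. The part of vessels and fibroblasts in the Cd34 level was not tested.

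In the upper follicle, Lrig1 (ENSMUSG00000030029, chromosome 6, 94604529 to 94700158) measured 149 and 209 CPM in WT skin versus 115 and 148 CPM in the knockouts. Like Lhx2, it had its highest level in WT library 2 and almost equal levels in WT library 1 and knockout library 2 (log2 fold change -0.45, SE 0.25, adjusted p = 0.341). Its value was -0.68 without WT library 1, -0.17 without WT library 2 and -0.29 without knockout library 1. Gata6 (ENSMUSG00000005836), a GATA factor of the sebaceous duct and junctional zone, measured 10.5 and 15.5 CPM in WT skin versus 6.32 and 6.05 CPM in the knockouts. It was the member with the lowest p, at about 0.476 of the WT level in knockout skin (log2 fold change -1.07, SE 0.32, adjusted p = 0.170, unadjusted p = 0.0244). Without WT library 1 it was called, at -1.33 (adjusted p = 0.0398). It was not called without WT library 2 (-0.75, adjusted p = 0.106), knockout library 1 (-1.11, adjusted p = 0.663) or knockout library 2 (-1.04, adjusted p = 0.722). Plet1 (ENSMUSG00000032068, chromosome 9, 50494525 to 50505482) measured 51.7 and 106 CPM in WT skin versus 68.0 and 177 CPM in the knockouts. Knockout library 2 was 2.61 times knockout library 1, and the genotypes overlapped (log2 fold change 0.64, SE 0.60, adjusted p = 0.554, interval 0.502-fold to 4.82-fold). Without knockout library 2 the sign turned, to -0.21. Exons of Cd34, Lrig1, Runx1, Gata6 and Plet1 share between 93 and 261 bases with a gene on the opposite strand, and as the strand setting is not given, a small part of their reads is uncertain.

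**Figure D2:**
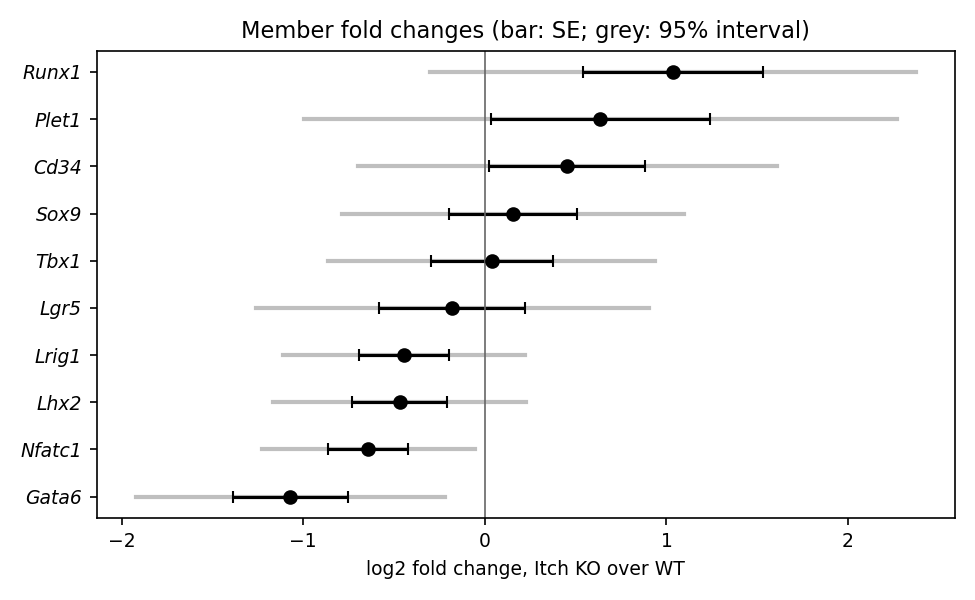
log2 fold change of knockout over WT for each member (x axis), with the standard error as black bars and the 95% interval from edgeR's quasi-likelihood fit in grey, 2 libraries per group. The intervals of Gata6 and Nfatc1 stay below 0 before adjustment, and those of the other 8 members cross it.

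For 8 of 10 members, the fold between the WT libraries exceeded the fitted fold between genotypes. The share of all tested genes for which this holds was not counted, and WT library 1 stood apart over all genes. Between the knockouts, the fold was smaller than that between genotypes for Lhx2, Lrig1, Nfatc1, Runx1 and Gata6, and larger for the others. In WT, library 2 was above library 1 for 8 members, against 45.0% of all tested genes. The members were not alone in this, as it held for 19 of 25 other bulge and upper follicle genes. In the knockouts library 2 was above library 1 for 8 members, against 50.1% of all tested genes. For 7 members, Lhx2, Sox9, Lgr5, Lrig1, Tbx1, Runx1 and Plet1, library 2 was higher in both groups, which held for 28.4% of all tested genes. Cd34 was the 1 member for which library 1 was higher in both. The replicate numbers are names, and nothing in the labels says that libraries of the same number belong together.

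**Figure D3:**
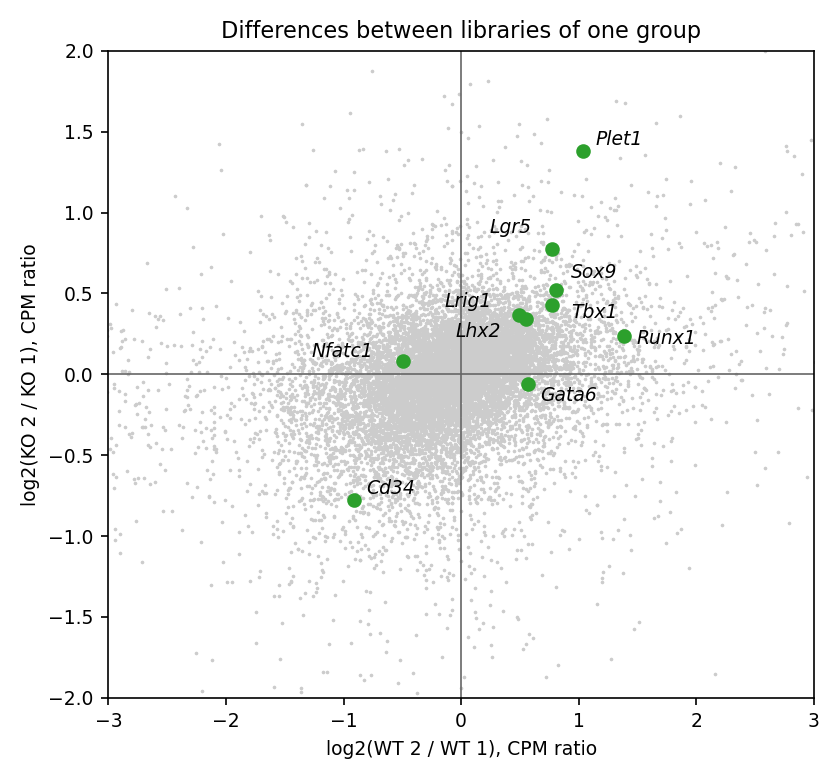
Ratio of library 2 to library 1 in WT (x axis) and in the knockouts (y axis), both log2 of CPM ratios, for the 10 members (green) and for tested genes above 1 CPM in every library (grey; genes beyond the axes are not shown). Plet1, Lgr5, Sox9, Tbx1, Lhx2, Lrig1 and Runx1 lie to the upper right of the centre, and Cd34 alone lies in the lower left.

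Genes of the hair shaft, its matrix and the inner root sheath set WT library 1 apart. Most of the 19 genes of this anagen list are made chiefly in growing follicles. The list summed to 212 CPM in WT library 1, 9247 in WT library 2, and 7455 and 10400 CPM in the knockouts. Its inner root sheath genes, Krt25, Krt27, Krt28, Krt71 and Tchh, had the highest levels of the list in WT library 2 and both knockouts. Krt71 measured 9.60 and 2608 CPM in WT skin versus 1707 and 2848 CPM. Krt34 and Krt86, keratins of the shaft, measured 0.467 and 0.533 CPM in WT library 1 and 74.0 and 80.9 CPM in WT library 2, with 249.1 and 161 CPM for Krt34 and 233 and 171 CPM for Krt86 in the knockouts. Foxn1, a factor of shaft differentiation, measured 25.9 and 48.2 CPM in WT skin versus 48.9 and 51.1 CPM. Of the 19 genes, 0 passed in edgeR, 0 reached an unadjusted p under 0.05 and 0 were called by DESeq2, with a median log2 fold change of 0.81. Both values depended on the WT libraries. Without WT library 1 the median was -0.08 and edgeR called 1 gene higher. Without WT library 2 the median was 7.52 and edgeR called 18 of the 19 higher. The sum of 6 sebaceous markers was lowest in WT library 1 as well, at 386 CPM against 1312 in WT library 2 and 948 and 838 in the knockouts. Its members split into 2 patterns. Elovl3, a fatty acid elongase, measured 30.2 and 309 CPM in WT skin versus 340 and 256 CPM, and Awat1, Soat1 and Far2 were likewise lowest in WT library 1. Awat2, a wax synthase, was instead lowest in the knockouts, at 47.2 and 72.5 CPM in WT skin versus 7.45 and 20.9 CPM. Mc5r, a melanocortin receptor of the gland, was also lower there, at 4.27 and 7.45 CPM in WT skin versus 2.02 and 3.31 CPM. Skeletal muscle markers ran the opposite way, at 14050 CPM in WT library 1, 2391 in WT library 2, and 1108 and 925 in the knockouts. Pvalb, a calcium-binding protein of fast fibres, measured 1147 and 277 CPM in WT skin versus 43.8 and 48.8 CPM. Nfatc1, which also acts in muscle, was likewise highest in WT library 1, then in WT library 2. Fat cell markers had sums of 3146 and 1570 CPM in WT skin versus 1695 and 2053 CPM. Of these 5, 3 (Adipoq, Plin1 and Lep) were lower in both knockouts, beside 30.0% of all tested genes, and Cidec and Cfd overlapped. Lymphatic vessel markers had sums of 36.3 and 38.1 CPM in WT skin versus 131 and 166 CPM. Pdpn measured 12.9 and 23.5 CPM in WT skin versus 89.6 and 105 CPM, and Lyve1 7.67 and 6.25 CPM versus 27.0 and 44.0 CPM. Flt4 was higher in both knockouts (log2 fold change 0.61), while Prox1 overlapped (-0.50). The part of these tissues in the members' levels was not tested.

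The members' position relative to WT depended on which WT library was used. Set against WT library 1 alone, both knockouts were higher for 4 members, Sox9, Tbx1, Runx1 and Plet1, and lower for 4, Lhx2, Lrig1, Nfatc1 and Gata6. Set against WT library 2 alone, both were higher for 2, Cd34 and Runx1, and lower for 6, Lhx2, Lgr5, Lrig1, Nfatc1, Tbx1 and Gata6. Of all tested genes, 44.7% lay above and 44.1% below WT library 1, and 42.1% above and 39.3% below WT library 2. Runx1 on the high side and Lhx2, Lrig1, Nfatc1 and Gata6 on the low side held against both.

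**Figure D4:**
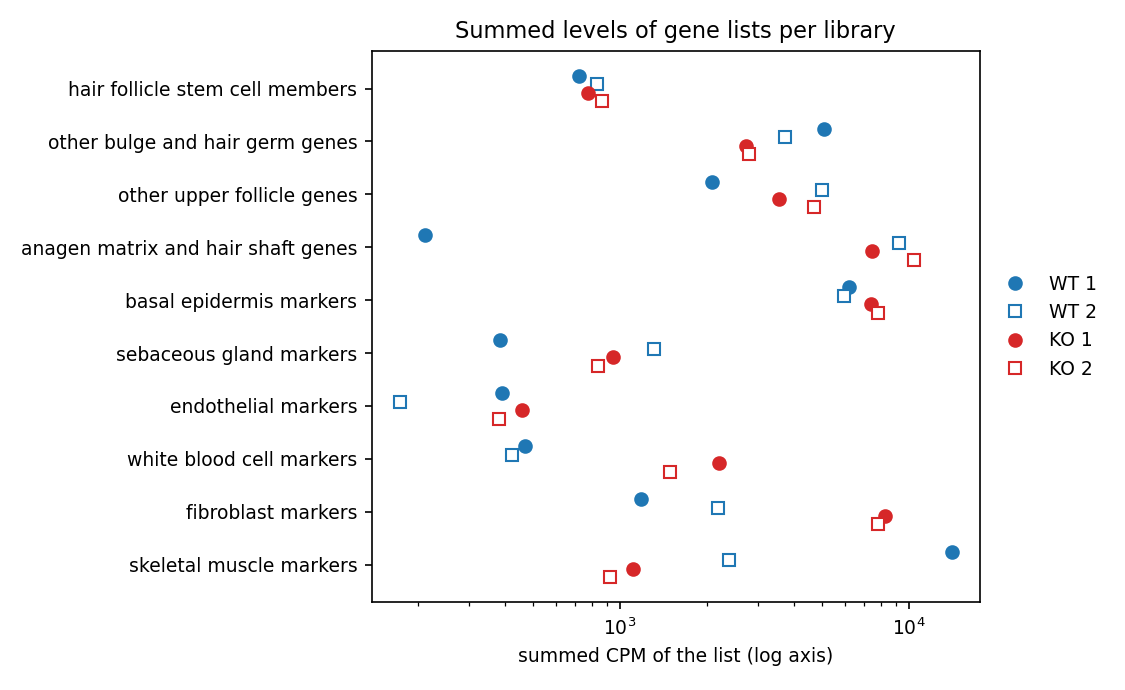
Summed CPM of each gene list (x axis, log scale) in WT libraries 1 and 2 (blue) and knockout libraries 1 and 2 (red; filled circles are library 1, open squares library 2). The members' sum spans 720 to 868 CPM, while the anagen list is at 212 CPM in WT library 1 and at 7455 CPM or more in the other libraries.

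Other genes of the bulge and hair germ went in both directions. Of 17 tested, 0 passed in edgeR. An unadjusted p under 0.05 was reached by 3 higher and 4 lower, beside 12.0% and 10.9% of all tested genes. DESeq2's calls were 2 higher and 4 lower, beside 7.83% and 6.16% of all tested genes. The list's median log2 fold change was 0.28. The sign of this median turned without WT library 1 (-0.11) and without knockout library 2 (-0.27), and it was 0.58 without WT library 2. The calls in edgeR were 1 higher and 2 lower without WT library 1, 5 and 4 without WT library 2, and 0 without either knockout library. Npnt, the matrix protein nephronectin deposited by bulge cells as an anchor for the hair-raising muscle, measured 56.2 and 52.3 CPM in WT and 17.2 and 24.7 CPM in knockout skin (log2 fold change -1.37, SE 0.24, edgeR adjusted p = 0.0916). Krt15, a keratin of the bulge and of basal epidermis, was highest in WT library 1 and lower in both knockouts (log2 fold change -1.57, SE 0.32, adjusted p = 0.110). Gas1, a hedgehog co-receptor that fibroblasts also make, measured 99.5 and 106 CPM in WT skin versus 233 and 205 CPM, a log2 fold change of 1.09 (SE 0.15, adjusted p = 0.0747). Basal epidermis markers had sums of 6192 and 5968 CPM in WT skin versus 7368 and 7794 CPM and a median log2 fold change of -0.02 over 8 genes, which ranged from -0.31 without WT library 2 to 0.19 without WT library 1. In that list 2 genes were above both WT libraries in both knockouts, the keratin Krt14, at 1617 and 1888 CPM in WT skin versus 2979 and 3475 CPM, and the integrin chain Itgb1, at 277 and 256 CPM in WT skin versus 496 and 434 CPM. Trp63, a factor of basal keratinocytes, was below, at 486 and 394 CPM in WT skin versus 323 and 375 CPM. The groups overlapped for the other 5, among them Krt5, at 2920 and 2848 CPM in WT skin versus 2845 and 2935 CPM.

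The isthmus receptor Lgr6, a relative of Lgr5, was far lower in both knockout libraries. It measured 51.8 and 21.2 CPM in WT and 3.10 and 4.59 CPM in knockout skin (log2 fold change -3.25, SE 0.56, edgeR adjusted p = 0.0884, DESeq2 adjusted p = 5.67e-07). In edgeR it was called without WT library 1 (-2.47, adjusted p = 0.0127) and without WT library 2 (-3.75, adjusted p = 0.000543), but not without a knockout library. Of 8 other upper follicle genes, 0 passed in edgeR. An unadjusted p under 0.05 was reached by 2, both lower, where 10.9% of all tested genes were lower at that level. While DESeq2 called 6.16% of all tested genes lower, of these 8 it called Lgr6 alone. The edgeR calls were 2 lower without WT library 1, 3 higher and 1 lower without WT library 2, and 0 without either knockout library. Prdm1, a transcriptional repressor found in the sebaceous gland and outer epidermis, measured 73.8 and 82.1 CPM in WT skin versus 53.4 and 57.6 CPM. Atp6v1c2, a proton pump subunit, measured 125 and 213 CPM in WT skin versus 95.9 and 108 CPM.

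Genes through which Lgr5 acts, and that read out Wnt signalling, included several with lower levels. Of 14 tested, 0 passed in edgeR. An unadjusted p under 0.05 was reached by 5, all lower, where 10.9% of all tested genes were lower at that level. DESeq2 called 5, all lower, beside 6.16% of all tested genes. Without overlap, 31.2% of all tested genes lay higher and 30.0% lower. The list's median log2 fold change was -0.19. The sign of the median turned without WT library 2 (0.35) and without knockout library 1 (0.06). Axin2, a feedback inhibitor and common readout of Wnt signalling, measured 88.0 and 56.5 CPM in WT and 29.0 and 31.2 CPM in knockout skin, a log2 fold change of -1.26 (SE 0.27, adjusted p = 0.114). Znrf3, a ligase that removes Wnt receptors and is held back by R-spondin bound to LGR receptors, measured 39.5 and 38.6 CPM in WT skin versus 21.8 and 22.2 CPM, a log2 fold change of -0.83 (SE 0.17, adjusted p = 0.111). Its relative Rnf43, at 39.7 and 33.9 CPM in WT skin versus 18.7 and 22.6 CPM, and the ligand gene Rspo3, at 15.2 and 10.2 CPM in WT skin versus 3.16 and 4.84 CPM, were the remaining genes called by DESeq2 beside Lgr6, and were named after their values were seen. Of the 14, 3 lay above both WT libraries in both knockouts, Rspo4, an R-spondin ligand, at a log2 fold change of 1.19 (SE 0.64, adjusted p = 0.327), and the beta-catenin partners Tcf7l1 at 0.53 (SE 0.29, adjusted p = 0.341) and Tcf7l2 at 0.37 (SE 0.28, adjusted p = 0.467). With 1 library left out, edgeR called 2 of the 14 lower without WT library 1, 5 lower and 2 higher without WT library 2, and 0 without either knockout library. Whether these genes differ from Lgr5 in their fold was not tested.

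Relatives and targets of Lrig1 were lower in both knockouts for 4 of 6 genes. In edgeR 0 passed, 4 reached an unadjusted p under 0.05 and DESeq2 called 2, all lower, and the median log2 fold change was -0.54. Of all tested genes, 30.0% were lower in both knockouts, 10.9% were lower at that p and DESeq2 called 6.16% lower. For these 6 genes the left-out fits follow. Without WT library 1 edgeR called 1 lower, without WT library 2 it called 3 lower, and without either knockout library 0. Lrig3 measured 85.3 and 73.8 CPM in WT and 46.6 and 49.1 CPM in knockout skin, a log2 fold change of -0.73 (SE 0.16, adjusted p = 0.116). The receptor gene Erbb3 measured 260 and 229 CPM in WT skin versus 134 and 137 CPM, a log2 fold change of -0.85 (SE 0.15, adjusted p = 0.0951), and Erbb2 at 218 and 219 CPM in WT skin versus 141 and 170 CPM. Egfr, the best described target of Lrig1 and named after its values were seen, measured 131 and 133 CPM in WT skin versus 128 and 137 CPM.

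**Figure D5:**
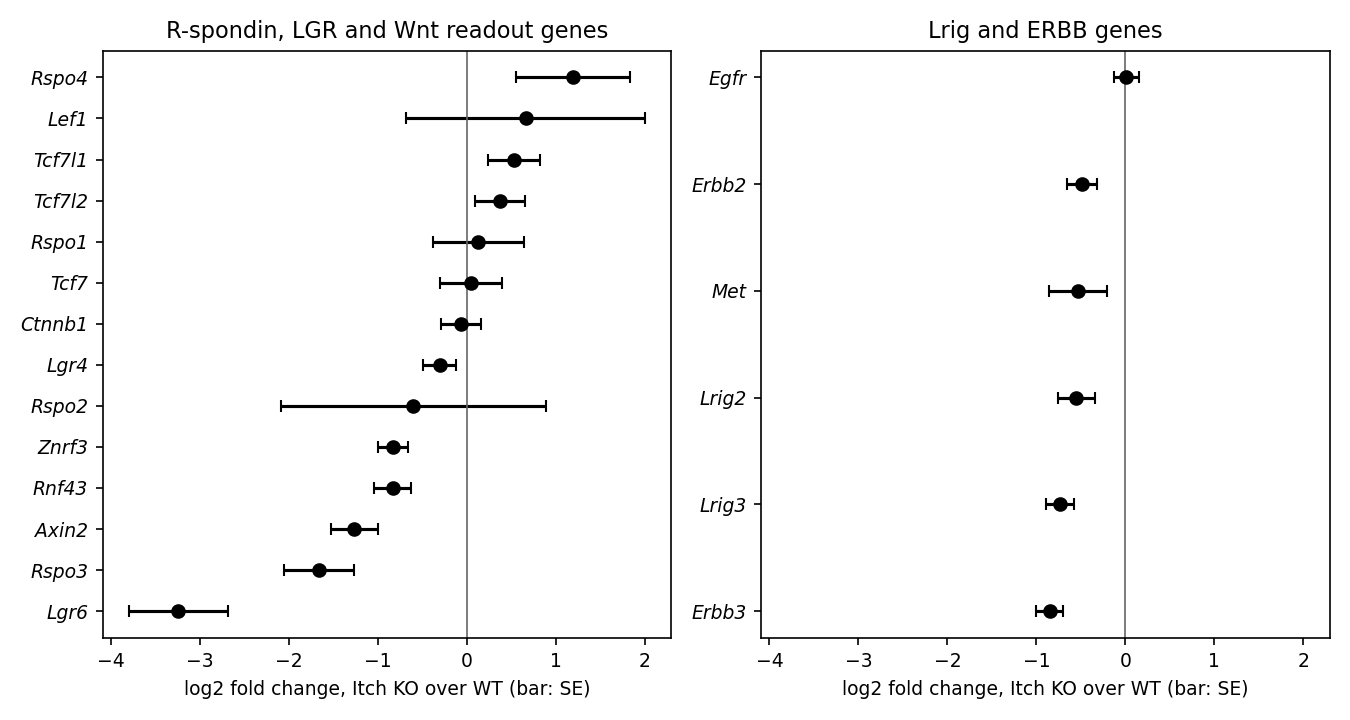
log2 fold change of knockout over WT (x axis) with standard errors for genes of the R-spondin, LGR and Wnt list (left) and of the Lrig and ERBB list (right), 2 libraries per group. Lgr6, Rspo3, Axin2, Rnf43 and Znrf3 lie lowest on the left, and 5 of 6 genes on the right lie below 0, with Egfr at 0.01.

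Partners and paralogs of the member factors showed no shared direction. Of 20 tested, 0 passed in edgeR. An unadjusted p under 0.05 was reached by 4 higher and 3 lower, beside 12.0% and 10.9% of all tested genes. DESeq2's calls were 2 higher and 2 lower, beside 7.83% and 6.16% of all tested genes. The list's median log2 fold change was -0.05. With single libraries left out, edgeR called 1 higher and 2 lower without WT library 1, 2 and 5 without WT library 2, and 0 without either knockout library. Nfatc4, a relative of Nfatc1, measured 12.7 and 14.6 CPM in WT and 35.5 and 38.5 CPM in knockout skin, a log2 fold change of 1.43 (SE 0.20, adjusted p = 0.0739), the direction opposite to that of Nfatc1. The relatives Nfatc2 and Nfatc3 were lower in both knockouts, as Nfatc1 was. Their log2 fold changes were -0.54 (SE 0.22, adjusted p = 0.246) and -0.50 (SE 0.16, adjusted p = 0.187). Runx3, a relative of Runx1 that T cells also make, measured 8.87 and 7.45 CPM in WT skin versus 14.4 and 20.9 CPM, the same direction as Runx1. Gata3, a GATA factor of the inner root sheath and epidermis, measured 330 and 248 CPM in WT skin versus 135 and 157 CPM, a log2 fold change of -0.99 (SE 0.21, adjusted p = 0.115), the same direction as Gata6.

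Signals known to act on the bulge lay in both directions, with 7 below both WT libraries in both knockouts and 1 above. Of all tested genes, 30.0% lay below and 31.2% above in this way. Of 13 tested, 0 passed in edgeR. An unadjusted p under 0.05 was reached by 1 higher and 3 lower, beside 12.0% and 10.9% of all tested genes. DESeq2 called the same numbers, beside 7.83% and 6.16% of all tested genes. The list's median log2 fold change was -0.44, and it ranged from -0.83 to -0.36 with 1 library left out. Without WT library 1, edgeR called 1 higher and 1 lower, without WT library 2 it called 2 and 4, and without either knockout library 0. Fgf7, a growth factor of dermal cells that activates follicle stem cells, measured 9.33 and 10.7 CPM in WT and 25.0 and 25.9 CPM in knockout skin, a log2 fold change of 1.34 (SE 0.22, adjusted p = 0.0819). Bmp2, a signal that holds bulge cells at rest, measured 34.6 and 26.3 CPM in WT skin versus 16.5 and 13.9 CPM, a log2 fold change of -0.999 (SE 0.25, adjusted p = 0.139). Wnt7b measured 135 and 82.2 CPM in WT skin versus 50.02 and 48.5 CPM, a log2 fold change of -1.14 (SE 0.28, adjusted p = 0.139).

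Genes with levels most like those of 3 members were searched over 12348 candidates by the distance between log2(CPM + 1) profiles over the 4 libraries, each centred on its mean. The gene nearest to Lhx2 was another member, Lrig1, at a distance of 0.04, followed by Celsr2, an adhesion receptor of planar cell polarity, at 0.09 and Kdm5c, an X-linked histone demethylase, at 0.09. Nearest to Cd34 were Olfml1 at 0.08, Card19 at 0.09 and Rnf213 at 0.10. Nearest to Lgr5 were Wnk4 at 0.09, Arhgef19 at 0.14 and Dusp4, a MAP kinase phosphatase, at 0.17. With 4 libraries, many genes share a profile by this measure, and it is given as a description.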

How the data were processed

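The members and gene lists were chosen with earlier results of these data known. The values were deposited by the authors as unnormalized read counts per Ensembl gene. Per the submitters' processing notes, the tools were HTSeq 0.6.1 after TopHat2, with SAMtools 0.1.19 and CASAVA 1.8.2, on mm10 (GRCm38). Annotation release, strand setting and read filters are not stated there. The 5 special counter lines of each file stayed out: 5.68% to 7.45% of reads had no feature and 4.48% to 4.70% were ambiguous. Symbols, positions and exon lengths came from GENCODE M21, which held 37607 of 39179 identifiers.

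The tests used edgeR 4.0.16 under R 4.3.3 (filterByExpr with a minimum count of 10, TMM scaling, robust quasi-likelihood F test with legacy=TRUE, two-sided, Benjamini-Hochberg over 16651 genes, threshold 0.05). The fit was tested on simulated data that gave every library the same spread. The WT and knockout libraries here differed in spread, so that test cannot show how the fit performs on them. CPM used TMM-scaled library sizes. SE is the log2 fold change over the root of F, and 95% intervals use the fit's degrees of freedom. DESeq2 1.42.0 and limma-voom (limma 3.58.1) were alternatives, with other scalings, no filter, a replicate block, X and Y genes left out and each library left out. Setting both knockouts against each WT library alone was added after seeing the data. An exact permutation test of 2 against 2 libraries cannot go below p = 0.333. Replicate libraries were not duplicates: over genes, chi-square divided by its degrees of freedom was 115 for WT and 24.8 for the knockouts. Named genes were the members, Itch, up to 3 genes with the smallest p of each pathway list and up to 2 of each cell type list, and the 3 nearest profiles of Lhx2, Cd34 and Lgr5. Outside that rule, Rnf43, Rspo3, Rspo4, Tcf7l1, Tcf7l2, Egfr, Trp63, Krt5, Elovl3, Awat1, Soat1, Far2, Cd3e and Cd3g were named after their values were seen. The same holds for Krt25, Krt27, Krt28, Krt71, Tchh, Adipoq, Cidec, Cfd, Flt4, Prox1, Nfatc2 and Nfatc3.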

Additional observations from a re-analysis of the deposited data

How the results depend on the processing

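Leaving out the low count filter, changing the size factors, scaling to 12 epithelial genes and the replicate block left the direction of each member's fold change and the count of 0 called members as they were. The tools differed over all genes: edgeR called 1 higher and 0 lower, DESeq2 1304 and 1025, limma-voom 0 higher, edgeR without the low count filter 420 and 68, and edgeR without X and Y genes 0 higher. With the replicate block edgeR called 0 genes higher, and 7 members, 3 of them higher, reached an unadjusted p under 0.05. Of the 16651 genes tested, 3998 reached it in that fit, and its pairing rests on the replicate numbers alone. Deviations of same-numbered libraries correlated at 0.186 across genes, and nothing in the labels pairs them. Over the 4 fits that leave out 1 library, genes called ranged from 0 to 2657 higher and from 0 to 2663 lower, members called from 0 to 1 higher and from 0 to 1 lower, and the members' median log2 fold change from -0.41 to 0.17. In the fits without a WT library only the knockouts gave the spread, which the remaining WT library was taken to share. The members called were Gata6 without WT library 1 (log2 fold change -1.33) and Nfatc1 (-0.86, adjusted p = 0.0117) and Runx1 without WT library 2. Directions that reversed were those of Sox9, from -0.20 to 0.62, Tbx1, from -0.30 to 0.48, Lgr5, from -0.61 to 0.26, and Plet1, from -0.21 to 1.25. Runx1 ranged from 0.50 to 1.89. The cause was not tested beyond the loss of a library.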
